A study of Mus musculus and Homo sapiens with 20 samples.

Results

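The 46 mouse imprinted genes described here were taken from a given list of symbols, and all 46 symbols were found in the GENCODE release M21 annotation of mm10, each at a single place on an autosome. They were 39 protein-coding and 7 non-coding genes in 21 imprinted domains, out of 30233 autosomal protein-coding and long non-coding genes in all. The peaks came from CUT&Tag, in which an antibody tethers Tn5 transposase to a histone mark, for H2AK119ub and H3K27me3 in mouse embryonic stem (mES) cells and haematopoietic stem and progenitor cells (HSPCs). Tet2 encodes a dioxygenase that oxidizes 5-methylcytosine, and WT and Tet2 KO cells of each type were profiled in 2 libraries per mark, which gave 8 groups and 16 of the 20 libraries of the series. The study asked how Tet2 loss alters H2AK119ub and open chromatin in stem cells. The other 4 libraries, from a human cell line, were not used here.

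The mES cells were WT and Tet2 KO lines grown with serum, LIF, 3 µM CHIR99021 and 1 µM PD0325901, so that line and genotype cannot be told apart. The HSPCs were Lin-c-Kit+ bone marrow cells of C57BL/6 mice or Tet2-/- mice on that background, aged 6 to 8 weeks, which lack Tet2 in every tissue, and the sorted fraction mixes stem cells with several kinds of progenitor. Nothing in the labels ties a library to its own culture or animal, so the spread between replicates may be technical. The deposited lists give the position of each peak and no read count, so the depth behind them is unknown, and in such bulk libraries a mark in more cells and more of a mark per cell cannot be told apart. They also hold no allelic information, so a promoter marked on the silent allele alone and a promoter marked on both alleles read alike.

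Imprinted genes are expressed from the maternal or the paternal allele according to DNA methylation set in the germ line at imprinting control regions, which lie in clusters of co-regulated genes. Non-coding RNAs of several clusters recruit Polycomb repressive complexes, so that PRC1 deposits H2AK119ub and PRC2 deposits H3K27me3 over the silent allele, and a few genes are imprinted through maternal H3K27me3 without DNA methylation. Many imprinted genes regulate fetal growth, and several, such as Dlk1, H19, Igf2, Cdkn1c and Grb10, are studied for their roles in haematopoietic stem cells. The DNA-binding protein ZFP57 keeps methylation at control regions through a TGCCGC hexamer.

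The promoters on which the results below turn are shown as the 250 bases before the annotated start, 5′ to 3′ along the transcribed strand, from RefSeq (GRCm38.p6). CpG dinucleotides, the sites of DNA methylation, are in capitals. Zdbf2 (chr1:63273019-63273268, plus strand) and Gnas (chr2:174284070-174284319, plus strand) are shown because their H3K27me3 peaks were absent from both KO mES libraries, and Nnat (chr2:157559828-157560077, plus strand) because its coverage was higher there. Meg3 (chr12:109540746-109540995, plus strand), Peg3 (chr7:6730420-6730669, minus strand) and Gpr1 (chr1:63214282-63214531, minus strand) are shown as 3 of the 5 promoters with the largest H3K27me3 difference between mES cells and HSPCs, the others being Blcap and Usp29.
Zdbf2: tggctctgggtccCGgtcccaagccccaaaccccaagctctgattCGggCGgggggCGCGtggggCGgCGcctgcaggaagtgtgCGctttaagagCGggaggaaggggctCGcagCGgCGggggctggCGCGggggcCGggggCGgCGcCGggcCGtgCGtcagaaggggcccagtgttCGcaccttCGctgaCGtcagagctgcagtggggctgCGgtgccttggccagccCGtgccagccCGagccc
Gnas: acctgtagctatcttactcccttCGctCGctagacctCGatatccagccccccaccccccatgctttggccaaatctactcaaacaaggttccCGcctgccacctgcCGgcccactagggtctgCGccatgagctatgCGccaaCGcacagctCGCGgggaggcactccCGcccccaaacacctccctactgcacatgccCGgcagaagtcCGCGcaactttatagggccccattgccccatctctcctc
Nnat: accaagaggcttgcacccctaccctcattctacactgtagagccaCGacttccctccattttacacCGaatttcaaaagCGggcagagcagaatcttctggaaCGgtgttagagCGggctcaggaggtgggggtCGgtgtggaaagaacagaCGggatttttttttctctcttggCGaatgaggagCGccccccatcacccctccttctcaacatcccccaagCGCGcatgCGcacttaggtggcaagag
Meg3: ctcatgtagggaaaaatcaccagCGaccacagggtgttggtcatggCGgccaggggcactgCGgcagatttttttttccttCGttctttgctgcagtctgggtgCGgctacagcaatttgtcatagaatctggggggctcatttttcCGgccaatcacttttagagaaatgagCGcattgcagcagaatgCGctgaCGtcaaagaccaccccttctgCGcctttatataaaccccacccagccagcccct
Peg3: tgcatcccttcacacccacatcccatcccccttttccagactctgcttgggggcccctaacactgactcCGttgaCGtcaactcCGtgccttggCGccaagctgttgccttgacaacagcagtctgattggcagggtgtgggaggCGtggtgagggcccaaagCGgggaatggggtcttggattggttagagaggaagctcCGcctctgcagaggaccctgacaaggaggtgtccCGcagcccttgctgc
Gpr1: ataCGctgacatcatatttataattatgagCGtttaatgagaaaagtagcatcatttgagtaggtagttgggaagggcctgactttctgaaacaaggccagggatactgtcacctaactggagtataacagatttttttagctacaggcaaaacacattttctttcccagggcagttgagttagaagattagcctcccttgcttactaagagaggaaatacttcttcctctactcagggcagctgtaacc

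These windows held from 26 CpGs (Zdbf2) to 2 CpGs (Gpr1), with 14 in Gnas, 12 in Nnat, 10 in Meg3 and 8 in Peg3. Such a window was found for 38 of the 46 imprinted genes, and the entries of Sgce, H19, Impact, Peg10, Trappc9, Cdkn1c, Peg13 and Rtl1 were missing. Over the 38, the median was 10 CpGs (range 0 to 40), beside a median of 9 over 19220 genes. The hexamer TGCCGC, searched on both strands, was found in 6 of 38 windows (15.8%), those of Copg2, Meg3, Nap1l5, Plagl1, Slc22a2 and Zim1, beside 9.69% of all windows. For 10 of the 38, the RefSeq start lay over 100 bp from the gene start used for the peaks. Members whose promoter was at least 50% covered were set beside the others. In mES cells their median CpG counts were 10 and 10 for H3K27me3 (19 and 19 genes) and 11 and 10 for H2AK119ub (21 and 17 genes). In HSPCs they were 12 and 9 for H3K27me3 (24 and 14 genes) and 16 and 9 for H2AK119ub (20 and 18 genes). These are descriptions of the windows, and the gene sets were formed from the peak data.

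Every value below is the percent of a promoter (1 kb on each side of the annotated gene start, 2000 bases) or of a gene span covered by the peaks of a library. Peaks of 0.501 kb were the commonest in every list, so a promoter value of 25.1% is a single peak of that width. A gene was called between groups when all libraries of a group lay above all libraries of the other and the means differed by at least 20 percentage points. Two-sided exact permutation tests were used, in which p cannot fall below 0.333 for 2 against 2 libraries or below 0.0286 for 4 against 4. Complete separation of the groups gives that smallest p, so every called gene has it by construction. A call is therefore a size rule, and its share among all genes is its background.

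The lists held between 85121 and 167378 peaks and covered 138 to 259 Mb of autosomes. The shortest H2AK119ub list was that of HSPC WT replicate 2 (138 Mb, beside 166 to 174 Mb in the other 3 HSPC libraries of that mark), and the shortest mES H3K27me3 list that of KO replicate 2 (148 Mb, beside 187 to 230 Mb). Peaks of H3K27me3 on chromosome X covered 21.7 and 24.3 Mb in KO HSPCs and 1.05 and 1.07 Mb in WT HSPCs. Those of H2AK119ub covered 2.51 and 2.69 Mb in KO HSPCs and 0.541 and 0.329 Mb in WT HSPCs. The sex of the mice in each library is not given, and its part in the HSPC results of either mark was not tested. The cell type labels were checked with marker genes. H3K27me3 covered at least 50% of the promoter of 1 of 5 mES markers (Pou5f1, Nanog, Esrrb, Zfp42, Tdgf1) in each mES library and of 4 of 5 in each HSPC library. Pou5f1, Nanog and Tdgf1 were called higher in HSPCs. Esrrb did not separate the cell types, at 85.15% to 100% in mES libraries and 100% in HSPC libraries. Zfp42 was at 25.1% in mES WT replicate 1, and at 0 in the other mES libraries and all HSPC libraries. For 6 HSPC markers (Kit, Cd34, Ptprc, Spi1, Runx1, Gata2) the median H3K27me3 coverage ranged from 66.7% to 76.0% over mES libraries and from 17.1% to 39.6% over HSPC libraries. Cd34, Spi1 and Runx1 were called lower in HSPCs, whereas Gata2 was at 100% and Ptprc at 0 in all 8 libraries. Kit, on which the HSPCs were sorted, did not follow the median, with 40.3%, 44.6%, 25.1% and 0 in mES libraries and 38.4%, 51.9%, 40.7% and 66.3% in HSPC libraries.

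The share of imprinted promoters with a peak lay above the share of all promoters for both marks in every library. H3K27me3 peaks touched 30 to 36 of the 46 promoters in mES libraries (65.2% to 78.3%) and 37 to 39 in HSPC libraries (80.4% to 84.8%), beside 35.3% to 47.6% and 52.8% to 54.4% of all promoters. For H2AK119ub the counts were 33 to 38 (71.7% to 82.6%) in mES libraries and 32 to 37 (69.6% to 80.4%) in HSPC libraries, beside 64.0% to 65.2% and 57.2% to 64.1% of all promoters. Both replicates of WT mES cells had peaks of both marks touching 28 of the 46 promoters (60.9%), against 39.0% of all promoters. H3K27me3 alone was found at 0 of the 46 in both replicates of WT or of KO mES cells, beside 1.38% and 1.39% of all promoters, a share too small to tell from 0 among 46 genes. In WT HSPCs 27 promoters (58.7%, beside 39.5% of all) had both marks, 4 (Gpr1, Magel2, Rtl1 and Slc22a2) had H3K27me3 alone (8.7%, beside 4.34%) and Peg13 had H2AK119ub alone (2.17%, beside 7.2%). By expressed allele, the median H2AK119ub coverage in HSPC libraries was 46% to 77.9% over the 17 maternally expressed genes and 27.4% to 49.5% over the 27 paternally expressed genes, the former being the higher in each of the 4 libraries. In mES libraries the H2AK119ub medians were 56.8% and 49.7% (maternally expressed) beside 60.9% and 58.4% (paternally expressed) in WT, the reverse order, and 68.2% and 68% beside 57.5% and 63.3% in KO. The H3K27me3 medians in HSPC libraries ranged from 66.6% to 92.5% and from 68.4% to 79.0%, with no fixed order.

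**Figure D1:**
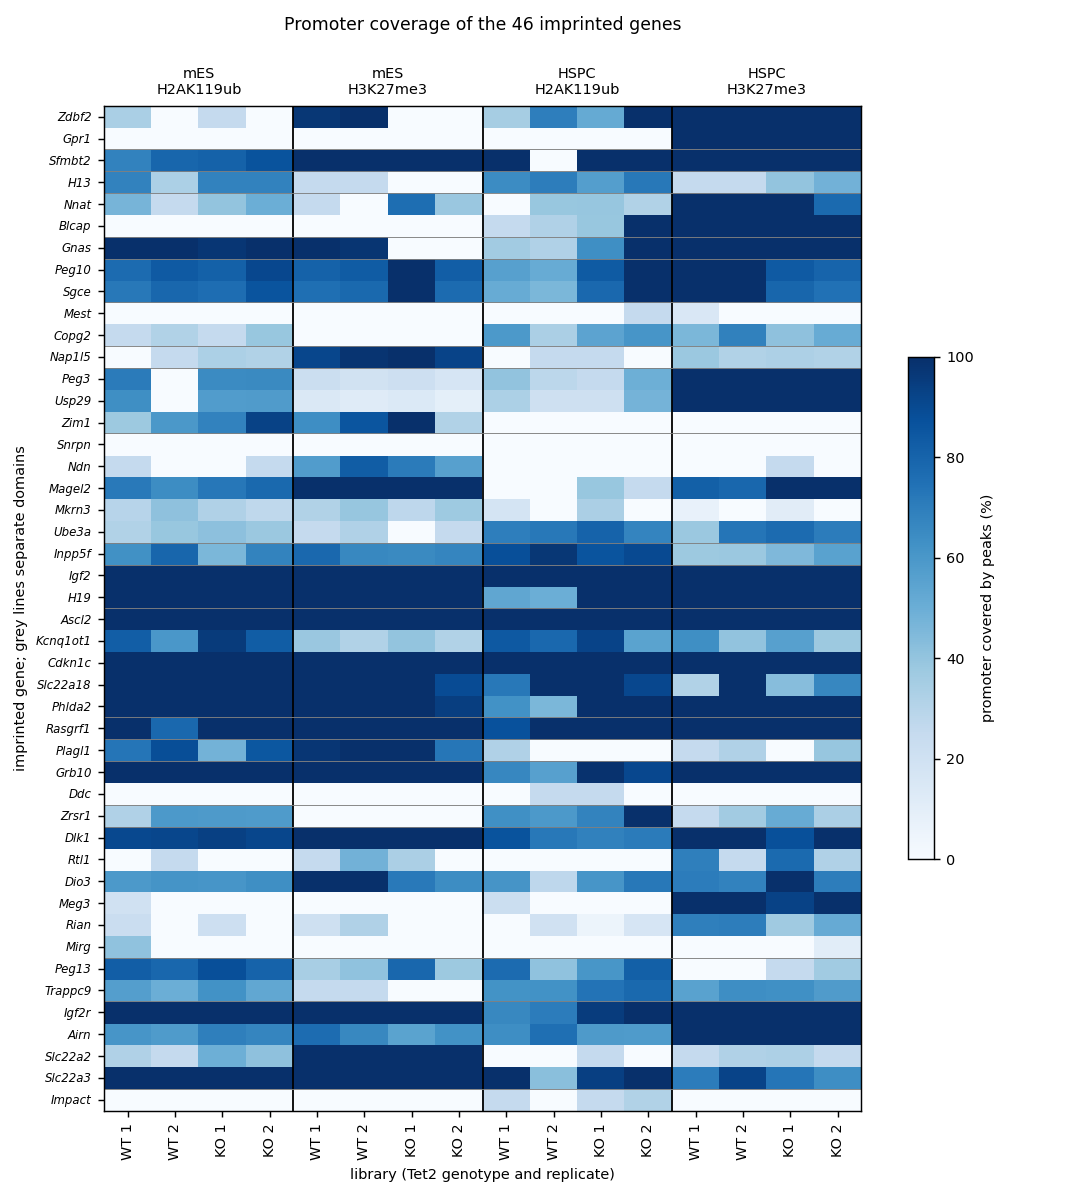
Percent of each promoter covered by peaks (colour, 0 to 100%) for the 46 imprinted genes (rows, in domain order, with grey lines between domains) in the 16 libraries (columns, by cell type, mark, Tet2 genotype and replicate). Igf2, Ascl2 and Cdkn1c were at 100% in all 16 libraries and Snrpn at 0 in all 16, and Gpr1 and Blcap go from 0 in the mES columns to 100% in the HSPC columns of H3K27me3.

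The heat map of all promoters shows which genes hardly varied. Igf2, the fetal insulin-like growth factor, Ascl2, a transcription factor of the trophoblast, and Cdkn1c, a cyclin-dependent kinase inhibitor that restrains growth, were covered to 100% by both marks in all 16 libraries. Together with Peg10, Rasgrf1, Grb10, Dlk1, Igf2r and Airn, they made 9 promoters that were at least 50% covered in every library. At the other end, 6 promoters (Mest, Snrpn, Mkrn3, Ddc, Mirg and Impact) stayed under 50% in every library. Snrpn, which encodes a splicing protein, had no peak at its gene start in any library, and at its other annotated start, 135 kb downstream, H3K27me3 covered 23.1% and 32.1% in WT HSPCs and 49.7% and 31.9% in KO HSPCs and no promoter base in mES cells. Mest, a hydrolase-like gene, was at 0 in 14 of 16 libraries at its outermost start, but at the start 9.96 kb downstream H3K27me3 covered 68.4%, 73.1%, 100% and 79.6% in mES WT and KO libraries and 100% in all 4 HSPC libraries. The value at a gene start is therefore not the value of every promoter of a gene.

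In mES cells, more imprinted promoters were called between WT and Tet2 KO for H3K27me3 (7) than for H2AK119ub (1). The Zdbf2 and Gnas promoters went from nearly full coverage in both WT libraries to 0 in both KO libraries, H13, Trappc9 and Rian from a narrow peak to 0, and Dio3 from 100% to a partial cover, whereas Nnat was higher in KO. By the call rule, 6 of the 46 promoters were lower in KO (13.04%), beside 11.2% of all promoters, and 1 was higher (2.17%), beside 1.35%. The share of imprinted promoters called lower was thus near the background. The mean difference, KO minus WT, was −6.85 percentage points over the 46 and −5.34 over all genes, with medians of 0.

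Zdbf2, a zinc finger gene expressed from the paternal allele that is needed for normal growth after birth, had H3K27me3 over 97.0% and 100% of its promoter in WT mES cells and 0 and 0 in KO mES cells (mean difference −98.5 points). The groups did not overlap, and the peaks were lost over a wider interval. Within 20 kb on each side of the start, H3K27me3 peaks covered 15.4 and 18.8 kb in WT and 0.098 and 0.501 kb in KO mES cells. Over the whole 132 kb from Gpr1 to Zdbf2 they covered 15.57% and 20.1% in WT against 0.38% and 0.38% in KO mES cells, as the plot of peaks around the starts shows. H2AK119ub at the promoter was 33.6% and 0 in WT against 25.1% and 0 in KO mES cells, so these groups overlapped.

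Gnas encodes the stimulatory G protein alpha subunit and has several starts with different imprinting. At its outermost start H3K27me3 covered 100% and 98.0% in WT against 0 and 0 in KO mES cells (mean difference −99.0 points), with no overlap. At the start 13.5 kb downstream it covered 88.6% and 100% in WT against 100% and 96.7% in KO, and at the start 43.4 kb downstream 100% in all 4 libraries. At the innermost group of starts, 45.7 kb downstream, it covered 90.7% and 97.2% in WT against 54.4% and 48.1% in KO. The outermost and innermost starts thus had no overlap between genotypes, and those between them overlapped. At the outermost start H2AK119ub was 100% and 100% in WT against 97.3% and 100% in KO mES cells, so the promoter kept H2AK119ub peaks in the KO libraries that had no H3K27me3 peak there.

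**Figure D2:**
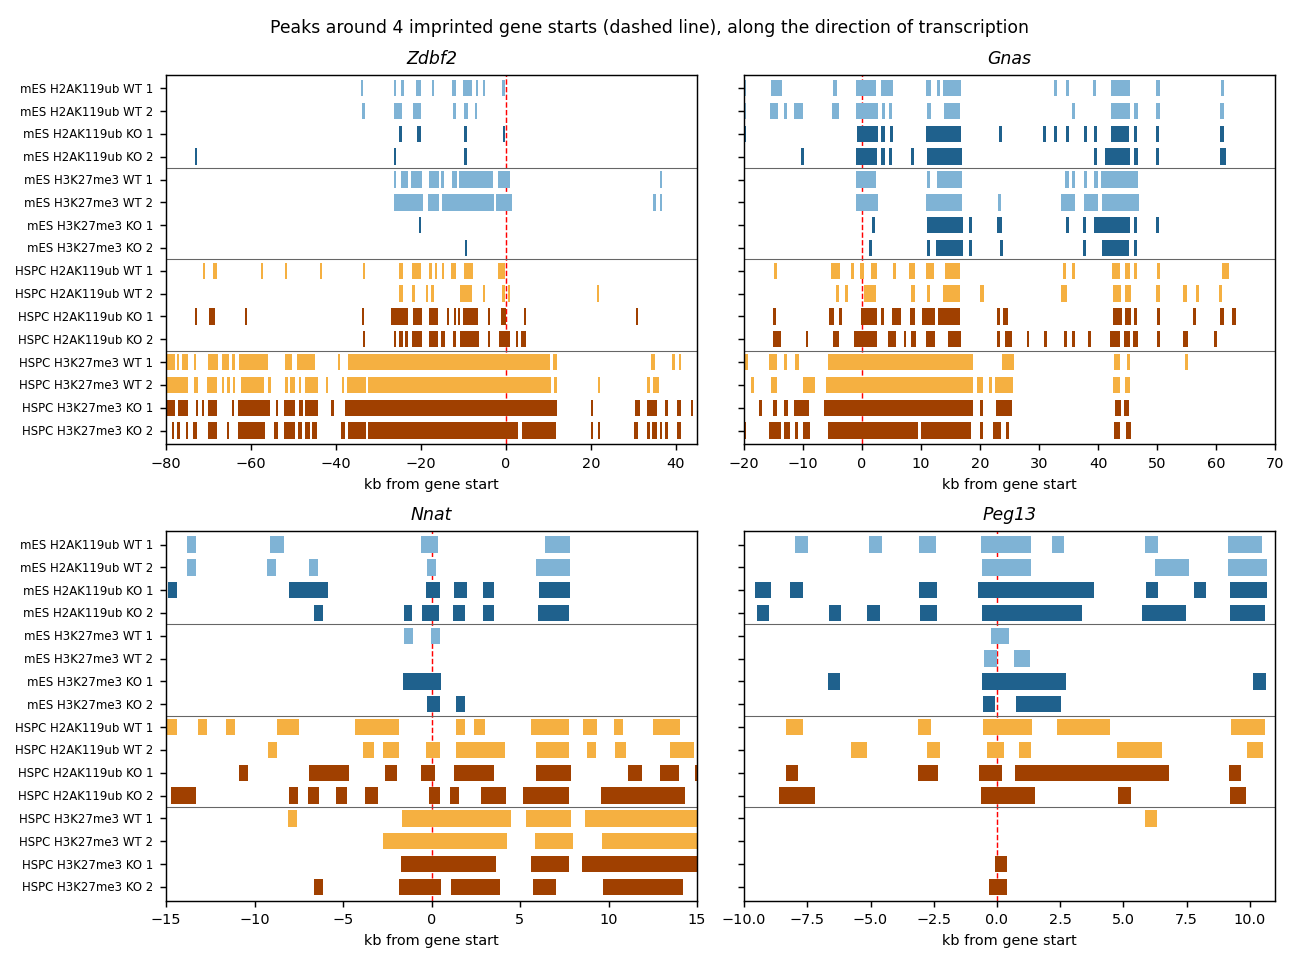
Peaks of the 16 libraries (rows, coloured by cell type and genotype) against the distance in kb from the gene start of Zdbf2, Gnas, Nnat and Peg13 (dashed line, transcription to the right). H3K27me3 peaks over the Zdbf2 start and its upstream region appear in both mES WT rows and all 4 HSPC rows but not in the mES KO rows, those over the outermost Gnas start likewise, and both marks reach further into Peg13 in the mES KO rows.

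Dio3 encodes the deiodinase that inactivates thyroid hormone and is the distal gene of the Dlk1-Dio3 domain. Its H3K27me3 coverage was 100% and 100% in WT against 71.5% and 64.2% in KO mES cells, with no overlap (−32.2 points). H13, a signal peptide peptidase gene, had 25.1% and 25.1% in WT against 0 and 0 in KO. Trappc9, which encodes a vesicle tethering subunit, had the same 4 values, 25.1%, 25.1%, 0 and 0. Each of these calls is the presence or absence of a single peak of the commonest width. Rian, a maternally expressed non-coding RNA, had 20.9% and 31.7% in WT against 0 and 0 in KO.

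Nnat, a neuronal membrane proteolipid gene that lies inside an intron of Blcap, was the imprinted promoter called higher, with H3K27me3 at 25.1% and 0 in WT against 76.2% and 38.6% in KO mES cells (+44.8 points). Over gene spans, 2 of the 46 genes were higher in KO for H3K27me3 (4.35%, beside 0.695% of all genes) and 0 were lower (beside 3.96%). They were Nnat (20.4% and 0 in WT, 21.4% and 40.9% in KO) and Peg13 (9.67% and 13.4% in WT, 57.5% and 37.6% in KO). Peg13 is a paternally expressed non-coding RNA inside Trappc9. For H2AK119ub the same 2 genes were higher over their spans (4.35%, beside 1.08%), with 0 lower (beside 1.55%), Nnat at 14.3% and 10.9% in WT against 51.9% and 45.5% in KO, and Peg13 at 39.1% and 28.9% in WT against 81.2% and 70.8% in KO. In both genes the KO libraries of both marks lay above the WT libraries, and the smallest exact permutation p, 0.333, applies to each.

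At promoters, H2AK119ub in mES cells was called at 1 of 46 imprinted genes in the direction of KO (2.17%, beside 4.12% of all promoters) and at 0 in the other (beside 4.29%). Zim1, a maternally expressed zinc finger gene next to Peg3, had 37.9% and 59.5% in WT against 68.2% and 92.9% in KO (+31.9 points). Its H3K27me3 values were 63.8% and 85.8% in WT against 100% and 31.5% in KO, which overlapped. Of the other 45 promoters, 16 had a mean H2AK119ub difference of 0, and the rest ranged from −20.4 to 29.6 points. Leaving out a library leaves 1 in its group, so the call rule is easier to meet, and its share over all genes was not counted. Zim1 was not called without KO replicate 2 (19.6 points), with promoters of 2 kb on each side (10.7 points) or over its span (4.49 points). For H3K27me3, 22 of the 39 promoters not called had a difference of 0 and the range was −20.025 to 20.7 points. Without KO replicate 2, the shortest list, the 7 promoters named above kept their directions. Their differences then ran in size from 25.1 points (H13 and Trappc9) to 99.0 points (Gnas).

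In HSPCs, more imprinted promoters were called between genotypes for H2AK119ub (10) than for H3K27me3 (4), and the former were all higher in KO. The called promoters included growth regulators of 4 clusters, H19, Phlda2, Igf2r and Grb10, and the paired Peg10 and Sgce promoters. In total, 10 of the 46 were higher in KO (21.7%), in 9 domains, beside 10.5% of all promoters, and 0 were lower, beside 2.28%. The mean difference was 12.4 percentage points over the 46 and 5.09 over all genes, and the medians were 7.58 and 0. WT replicate 2 had the shortest list of this mark. Without it the differences of the 10 ran from 20.5 points (Zrsr1) to 46.8 points (H19), and without WT replicate 1 from 24.5 points (Zrsr1) to 54 points (Phlda2). Without KO replicate 1 they ran from 25.1 points (Magel2) to 71.5 points (Blcap). Without KO replicate 2 those of Blcap (10.5 points) and Zrsr1 (6.4 points) fell short of 20, and the others were at least 26.6 points.

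H19, the maternally expressed non-coding RNA of the Igf2 domain, had H2AK119ub over 53.3% and 49.7% of its promoter in WT HSPCs and 100% and 100% in KO HSPCs. Phlda2, a placental growth regulator of the Kcnq1ot1 domain, had 62.4% and 46% in WT against 100% and 100% in KO. Igf2r, which encodes a receptor that clears IGF2, had 66.3% and 70.7% in WT against 95.1% and 100% in KO. Grb10, an adaptor that dampens insulin signalling, had 66.8% and 56.0% in WT against 99.2% and 90.8% in KO. At all 4 gene starts the KO libraries lay above the WT libraries, by 29.1 to 48.6 points in the mean, and H3K27me3 was at 100% there in every HSPC library. At the Grb10 start 1.28 kb downstream, H2AK119ub was 32.0% and 25.1% in WT against 58.2% and 26.7% in KO, which overlapped. At that 10.7 kb downstream it was 4.65% and 6.8% in WT against 45.8% and 38.6% in KO, with no overlap.

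At its outermost start Gnas was at 36.1% and 31.8% for H2AK119ub in WT and at 63.4% and 100% in KO HSPCs (+47.8 points). At the start 13.5 kb downstream it was at 24.85% and 39.75% in WT against 86.9% and 0 in KO, which overlapped. At the start 43.4 kb downstream it was at 66.9% and 66.3% in WT against 69.95% and 69.7% in KO. At the innermost group of starts, 45.7 kb downstream, it was at 53.7% and 38.3% in WT against 57.9% and 65.1% in KO. With all annotated starts the difference was 19.3 points. Blcap, an apoptosis-related gene around Nnat, was at 25.1% and 32.0% in WT against 39.0% and 100% in KO. Zrsr1, an intronless splicing factor gene, was at 63.3% and 59.3% in WT against 67.7% and 99.9% in KO. At the gene starts of these 3 the groups did not overlap, but the KO libraries were far apart, with replicate 2 the higher. At the Blcap starts 4.91 kb downstream, H2AK119ub covered 81.0% and 69.0% in WT against 67.0% and 100% in KO, which overlapped. Over gene spans the KO minus WT difference had the other sign for Blcap (−3.94 points) and Zrsr1 (−11.8 points).

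Peg10, a retrotransposon-derived placental gene, and Sgce, the epsilon sarcoglycan gene, start 99 bp apart on opposite strands, so their promoter windows share 1901 bp and count as a single observation. H2AK119ub at Peg10 was 56.0% and 50.9% in WT against 83.4% and 100% in KO HSPCs. At Sgce it was 51.0% and 45.9% in WT against 78.4% and 100% in KO. For H3K27me3 the KO libraries lay below the WT libraries there. It covered 100% and 100% of the Sgce promoter in WT against 79.0% and 74.8% in KO, a call, and 100% and 100% of the Peg10 promoter in WT against 83.9% and 79.8% in KO, whose difference of −18.2 points fell short of the rule.

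**Figure D3:**
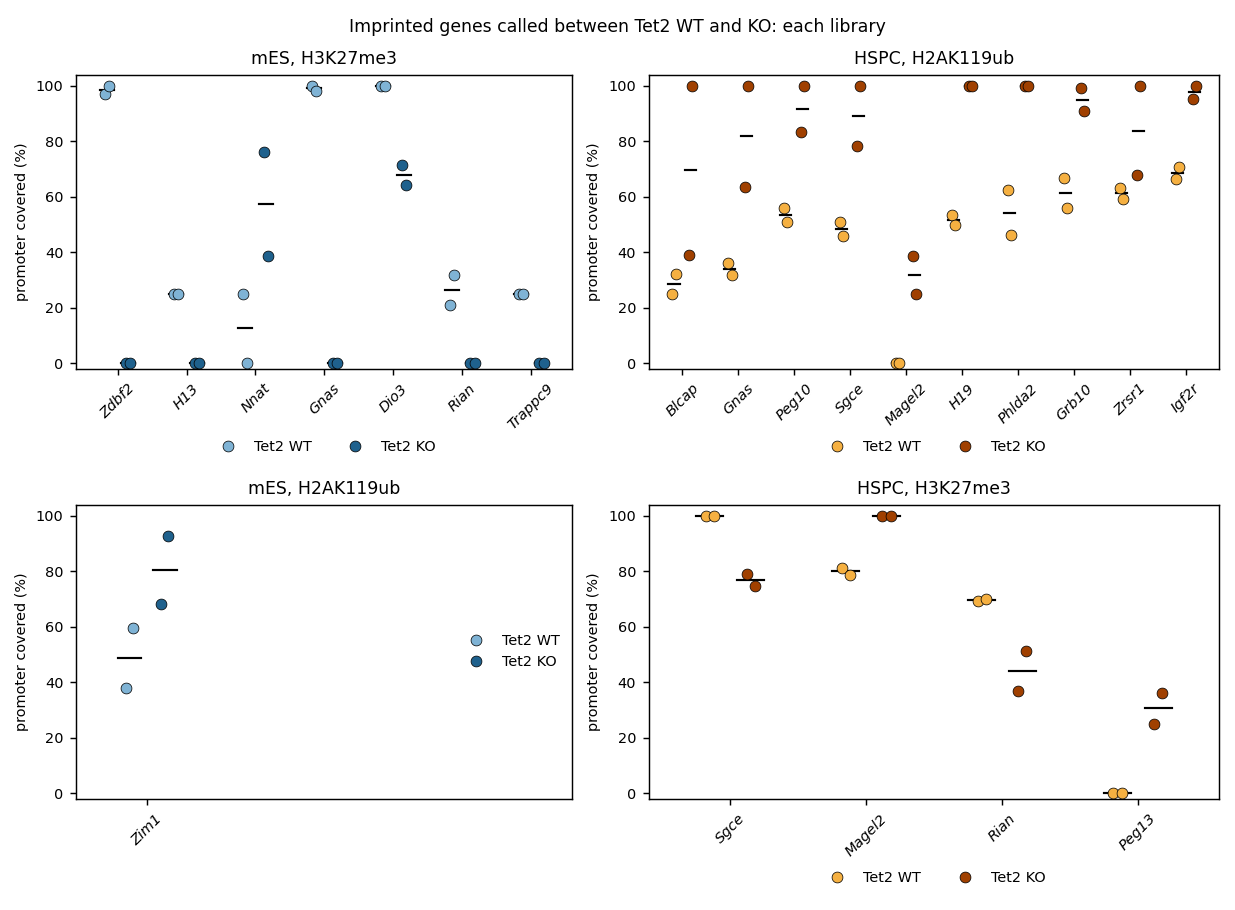
Percent of the promoter covered by peaks in each library (points, WT lighter and KO darker) with the mean of each pair (black bars), for the imprinted genes called between Tet2 WT and KO, in a panel per cell type and mark. Zdbf2 and Gnas fall from 97.0% or more to 0 for H3K27me3 in mES cells, and the 10 genes of the HSPC H2AK119ub panel all lie higher in KO.

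Magel2, a MAGE family gene of the Snrpn domain that regulates protein trafficking, was higher in KO HSPCs for both marks. H2AK119ub covered 0 and 0 of its promoter in WT against 38.7% and 25.1% in KO. H3K27me3 covered 81.4% and 78.6% in WT against 100% and 100% in KO. With Peg13 (0 and 0 in WT, 25.1% and 36.4% in KO), it made 2 promoters called higher for H3K27me3 in KO HSPCs (4.35%, beside 3.55% of all promoters). The 2 called lower (4.35%, beside 4.08%) were Sgce and Rian, the latter at 69.4% and 69.95% in WT against 37.0% and 51.2% in KO. These shares were near the background. The mean difference was 0.198 points over the 46, −0.463 over all genes, and 20 of the 42 promoters not called had a difference of 0. Without WT replicate 2 the Magel2 difference was 18.65 points, and without KO replicate 1 that of Rian was −18.45 points, both short of 20.

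Over gene spans in HSPCs, H2AK119ub was higher in KO at 2 of 46 genes (4.35%, beside 2.22% of all genes) and lower at 0 (beside 1.03%). Both were protein-coding genes of the Dlk1-Dio3 domain. Dlk1, which encodes a transmembrane protein of the Notch ligand family, had 25.2% and 36.9% in WT against 64.3% and 54.2% in KO, and Dio3 had 68.5% and 43.9% in WT against 70.2% and 85.9% in KO. For H3K27me3, 3 spans were higher in KO (6.52%, beside 1.5%) and 1 was lower (2.17%, beside 1.81%). Magel2 had 47.5% and 46.5% in WT against 87.8% and 57.7% in KO. Its neighbour Ndn, the necdin gene, had 18.6% and 26.2% in WT against 50.1% and 38.4% in KO. Both are paternally expressed neighbours in the Snrpn domain. Mirg, a maternally expressed non-coding gene that hosts microRNAs, had 10.4% and 10.9% in WT against 33.1% and 32.1% in KO, and Slc22a18, a transporter gene, had 45.7% and 53.3% in WT against 31.0% and 21.1% in KO.

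At promoters, Gnas and Rian were called between genotypes in both cell types. At its gene start Rian was lower in KO for H3K27me3 in each of them. In HSPCs its KO minus WT difference turned to 8.00 points over the span and 11.8 points with all annotated starts. At its outermost start Gnas was lower for H3K27me3 in KO mES cells and higher for H2AK119ub in KO HSPCs, which concerns different marks. At 2 promoters the KO libraries of a mark lay on opposite sides of the WT libraries in the 2 cell types. For H3K27me3 this was H13 (2.17% of the 46, beside 1.7% of all promoters), below WT in mES cells and above it in HSPCs (25.1% and 25.1% in WT against 39.9% and 48.3% in KO HSPCs). For H2AK119ub it was Airn (2.17%, beside 2.67%), with 60.9% and 58.4% in WT against 69.3% and 67.1% in KO mES cells, and 63.7% and 75.8% in WT against 58.9% and 58.3% in KO HSPCs, neither of which reached 20 points. Zdbf2, which lost its H3K27me3 peaks in KO mES cells, was covered to 100% in all 4 HSPC libraries.

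Between cell types, H3K27me3 differed at 20 of the 46 promoters, WT and KO libraries being pooled as 4 mES and 4 HSPC libraries. In HSPCs 12 were higher (26.1%, beside 18.9% of all promoters) and 8 were lower (17.4%, beside 8.99%). The 12 lay in 9 domains and included the starts of Gpr1, Blcap, Meg3, Peg3 and Usp29, which had little or no H3K27me3 in mES cells and were fully or almost fully covered in HSPCs. Each had the smallest exact permutation p, 0.0286, which became 0.0984 after Benjamini-Hochberg adjustment over all genes, so none passed 0.05 after adjustment. The mean difference, HSPC minus mES, was 10.1 points over the 46 and 5.4 over all genes.

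Gpr1, a chemerin receptor gene next to Zdbf2, had H3K27me3 over 0 of its promoter in all 4 mES libraries and over 100% in all 4 HSPC libraries. It had no H2AK119ub peak in any of the 8 libraries of that mark. In HSPCs the Gpr1-Zdbf2 domain was covered by H3K27me3 over 56.5%, 56.5%, 61.9% and 56.2% of its length, below Igf2-H19 and, in 3 of these 4 libraries, Nnat-Blcap among the 12 domains with several members. A single H3K27me3 peak of 35.2 to 49.8 kb lay over the Zdbf2 start in HSPCs, against 2.92 and 3.75 kb in WT mES cells. H2AK119ub at Zdbf2 was 34.95%, 69.8%, 51.7% and 100% in HSPC libraries and 33.6%, 0, 25.1% and 0 in mES libraries, with no overlap.

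Peg3, a zinc finger gene that acts in maternal behaviour and growth, and Usp29, a deubiquitinase-family gene, start 147 bp apart on opposite strands and share 1853 bp of promoter. H3K27me3 at Peg3 was 22.2%, 19.2%, 21.2% and 16.5% in mES libraries and 100% in all 4 HSPC libraries. At Usp29 it was 14.8%, 11.9%, 13.9% and 9.15% in mES libraries and again 100% in HSPCs. H2AK119ub at Peg3 did not separate the cell types, at 71.0%, 0, 64.9% and 65.4% in mES libraries and 40.5%, 27.9%, 25.1% and 49.5% in HSPC libraries. Their neighbour Zim1 went the other way, with H3K27me3 at 63.8%, 85.8%, 100% and 31.5% and H2AK119ub at 37.9%, 59.5%, 68.2% and 92.9% in mES libraries and both at 0 in all HSPC libraries. Within this domain the start shared by the paternally expressed genes and that of the maternally expressed gene thus differed between cell types in opposite directions.

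**Figure D4:**
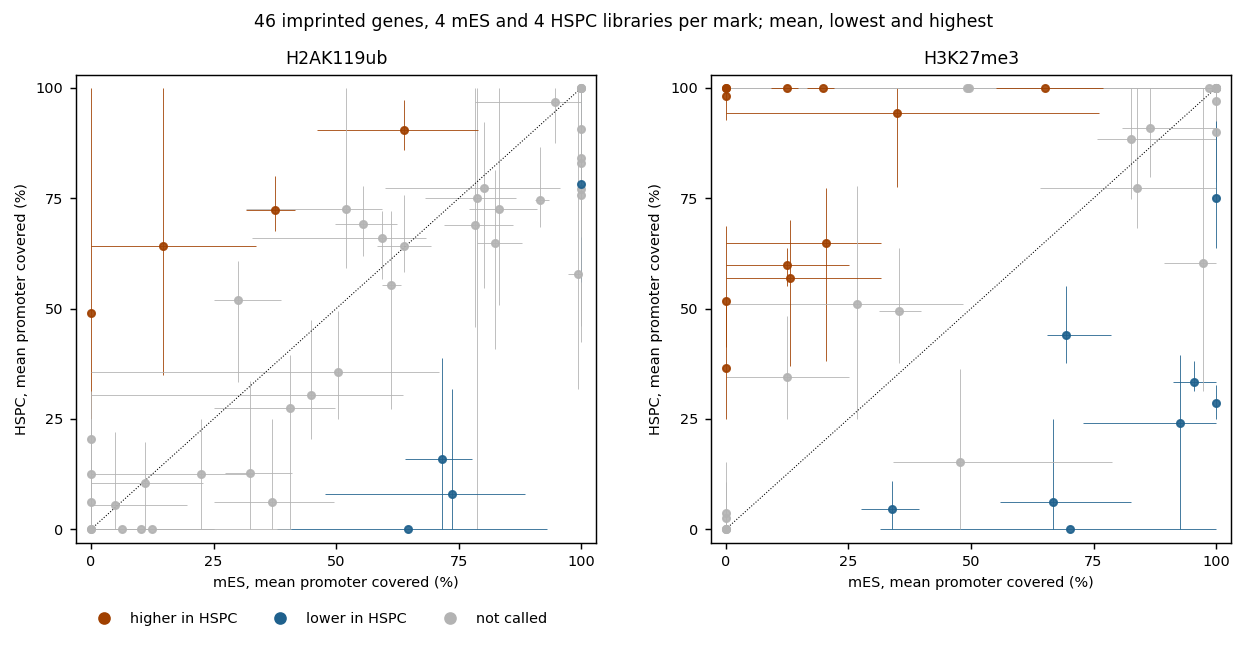
Mean percent of the promoter covered in 4 mES libraries (x axis) and 4 HSPC libraries (y axis) for the 46 imprinted genes, for H2AK119ub (left) and H3K27me3 (right), with lines from the lowest to the highest library. For H3K27me3, 12 called genes lie above the dotted line of equality and 8 below it, and for H2AK119ub 4 lie on each side.

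Meg3 is the maternally expressed non-coding RNA next to the control region of the Dlk1-Dio3 domain. Its promoter had no H3K27me3 peak in any mES library and was covered to 100%, 100%, 92.6% and 100% in HSPC libraries. H2AK119ub was 19.6%, 0, 0 and 0 in mES libraries and 22.0%, 0, 0 and 0 in HSPC libraries, so the groups overlapped. Rian, further along the same strand, was higher in HSPCs as well (0 to 31.7% in mES libraries, 37.0% to 69.95% in HSPC libraries). Mirg had H3K27me3 at its gene start in 1 of 8 libraries (10.7%), and Rtl1, a retrotransposon-derived gene that acts in the placenta, ranged from 0 to 48.4% in mES libraries and from 25.1% to 77.7% in HSPC libraries, with overlap. Dlk1 was at 100% in all mES libraries and at 87.7% to 100% in HSPC libraries. Over the whole domain of 828 kb, H3K27me3 covered 18.7% to 30.9% in mES libraries and 24.99% to 27.9% in HSPC libraries, while H2AK119ub covered 29.9% to 33.8% and 4.95% to 11.9%.

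**Figure D5:**
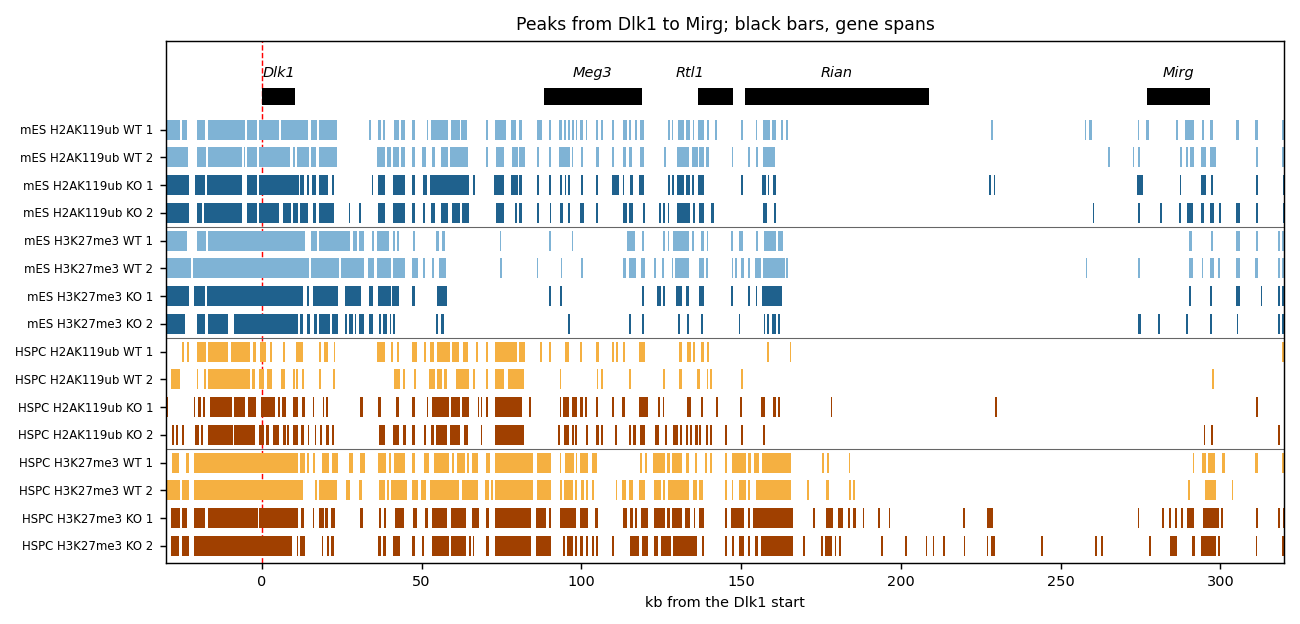
Peaks of the 16 libraries (rows, coloured by cell type and genotype) from 30 kb before to 320 kb after the Dlk1 start (dashed line), with the spans of Dlk1, Meg3, Rtl1, Rian and Mirg as black bars. The widest H2AK119ub peak over the Dlk1 start spans 6.18 to 12.3 kb in the mES rows and 1.42 to 4.45 kb in the HSPC rows, and H3K27me3 peaks at the Meg3 start appear in the HSPC rows.

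Blcap had no peak of either mark at its gene start in any mES library. In HSPCs it was covered to 100% by H3K27me3 in all 4 libraries, and to 25.1%, 32.0%, 39.0% and 100% by H2AK119ub, so both marks separated the cell types at this start. At the Blcap starts 4.91 kb downstream, H2AK119ub covered 44.0% to 67.2% in mES libraries and 67.0% to 100% in HSPC libraries, which overlapped. H3K27me3 there was at 0 in mES libraries and at 63.3% to 97.5% in HSPC libraries. Nnat was higher in HSPCs for H3K27me3 (0 to 76.2% in mES libraries, 77.6% to 100% in HSPC libraries). The other promoters higher for H3K27me3 in HSPCs were those of Copg2, Ube3a, Zrsr1, Trappc9 and Airn, with mean differences of 34.9 to 51.7 points. Ube3a, the ubiquitin ligase gene of Angelman syndrome, was also higher for H2AK119ub, at 31.6%, 38.9%, 41.6% and 38.0% in mES libraries and 69.7%, 72.3%, 80.1% and 67.5% in HSPC libraries. Inpp5f, an inositol phosphatase gene, was higher in HSPCs for H2AK119ub (62.8%, 79.0%, 46.1% and 67.6% against 88.2%, 97.2%, 86.0% and 90%) and lower for H3K27me3 (65.6% to 78.5% against 37.7% to 55.1%), so its marks went apart.

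The promoters lower in HSPCs for H3K27me3 were those of Nap1l5, Zim1, Ndn, Mkrn3, Inpp5f, Plagl1, Slc22a2 and Slc22a3. Slc22a2, an organic cation transporter gene of the Igf2r domain, was at 100% in all 4 mES libraries and at 25.1%, 31.8%, 32.7% and 25.1% in HSPC libraries. Plagl1, a zinc finger regulator of other imprinted genes, had 97.5%, 100%, 100% and 72.9% in mES libraries and 25.1%, 31.9%, 0 and 39.5% in HSPC libraries. Its H2AK119ub values were 73.1%, 88.5%, 47.8% and 85.2% in mES libraries and 31.7%, 0, 0 and 0 in HSPC libraries, so both marks were lower at this outermost start. At the Plagl1 starts 30.3 kb downstream the direction for H3K27me3 was the reverse, with 38.0% to 42.2% in mES libraries and 80.9% to 100% in HSPC libraries. H2AK119ub there covered 50.5% to 70.5% in mES libraries and 37.6% to 54.6% in HSPC libraries, which overlapped. In the Snrpn domain, Ndn and Mkrn3 were at 56.0% to 82.7% and 27.7% to 39.5% in mES libraries and at 0 to 25.1% and 0 to 11% in HSPC libraries.

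H2AK119ub was called at 8 promoters between cell types, 4 higher in HSPCs (8.7%, beside 11.5% of all promoters) and 4 lower (8.7%, beside 9.77%), so both shares lay below the background. Those higher were Zdbf2, Blcap, Ube3a and Inpp5f. Those lower were Zim1, Plagl1, Magel2 and Grb10. Magel2 had 71.8%, 64.1%, 72.6% and 77.8% in mES libraries and 0, 0, 38.7% and 25.1% in HSPC libraries. Grb10 was at 100% in all 4 mES libraries and at 66.8%, 56.0%, 99.2% and 90.8% in HSPC libraries, its WT libraries being the lower. At the Grb10 start 1.28 kb downstream the cell types overlapped, with 56.3% to 100% in mES libraries and 25.1% to 58.2% in HSPC libraries. At that 10.7 kb downstream they did not, with 100% in mES libraries and 4.65% to 45.8% in HSPC libraries. All 8 called promoters had an exact permutation p of 0.0286 and an adjusted p of 0.123 over all genes. The mean difference was −5.92 points over the 46 and 0.149 over all genes.

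Over gene spans, 1 gene was higher in HSPCs for H2AK119ub (2.17%, beside 6.22% of all genes), Blcap, and 6 were lower (13.04%, beside 10.6%), namely Ndn, Magel2, Mkrn3, Cdkn1c, Dlk1 and Dio3. Cdkn1c, whose promoter did not vary, was covered over 100% of its span in all mES libraries and over 77.0% to 81.7% in HSPC libraries. For H3K27me3, 7 spans were higher (15.2%, beside 8.1%) and 8 were lower (17.4%, beside 9.47%). Those higher were Zdbf2, Gpr1, Nnat, Blcap, Mest, Meg3 and Igf2r. Igf2r was covered by H3K27me3 over 6.1% to 9.63% of its span in mES libraries and 68.2% to 74.6% in HSPC libraries, in which peaks of 36.5 to 56.5 kb lay over its start. Its antisense non-coding RNA Airn, which silences the domain from the paternal allele, had H3K27me3 over 26.9% to 37.3% of its span in mES libraries and 49.8% to 52.1% in HSPC libraries. Those lower were Nap1l5, Ndn, Magel2, Mkrn3, H19, Slc22a18, Peg13 and Slc22a3.

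The 2 marks were compared within each cell type by the share of bases under their peaks. Their lists differ in length and the depth is unknown. In these comparisons more of a mark means a larger share covered, not a larger amount. In mES cells, H3K27me3 coverage was above that of H2AK119ub at 6 imprinted promoters (13.04%, beside 4.37% of all promoters) and below it at 6 (13.04%, beside 23.3%). Nap1l5, an intronless gene of the nucleosome assembly protein family, had H2AK119ub at 0, 25.1%, 33.1% and 31.5% and H3K27me3 at 91.1%, 98.2%, 100% and 92.4%. Slc22a2 had H2AK119ub at 31.7%, 25.1%, 49.5% and 41.4%, beside H3K27me3 at 100% throughout. Ndn had H2AK119ub at 25.1%, 0, 0 and 25.1% and H3K27me3 at 57.8%, 82.7%, 70.8% and 56.0%. Sfmbt2, a Polycomb protein gene that is imprinted through maternal H3K27me3, Magel2 and Dio3 were also higher for H3K27me3, by 21.3 to 28.5 points. All called genes of this comparison had an exact permutation p of 0.0286 and an adjusted p of 0.0965 over all genes.

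Promoters with more H2AK119ub than H3K27me3 in mES cells were those of H13, Copg2, Kcnq1ot1, Zrsr1, Peg13 and Trappc9. Zrsr1 had H2AK119ub at 31.7%, 59.4%, 58.7% and 58.5% and no H3K27me3 peak in any mES library. Kcnq1ot1, the paternally expressed antisense RNA of its domain, had 82.4%, 60.0%, 95.7% and 82.6%, beside H3K27me3 at 38.3%, 31.4%, 39.9% and 31.4%. Peg13 had 82.4%, 78.8%, 87.9% and 80.3%, beside 34.2%, 40.7%, 78.8% and 37.6%. H13 had 68.3%, 32.9%, 68.4% and 68.0%, beside 25.1%, 25.1%, 0 and 0, and Trappc9 56.8%, 49.7%, 62.4% and 52.9%, beside the same 25.1%, 25.1%, 0 and 0. In all 5 the libraries of the marks did not overlap. At Peg13 they all but touched, with the lowest H2AK119ub value at 78.8% and the highest H3K27me3 value at 78.75%. Over gene spans 2 genes (4.35%, beside 2.57%) had more H3K27me3, Nap1l5 and Ndn, and 2 (4.35%, beside 16.6%) had more H2AK119ub, H13 and Igf2r.

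In HSPCs, 12 imprinted promoters had more H3K27me3 than H2AK119ub (26.1%, beside 9.6% of all promoters) and 4 had less (8.7%, beside 20.2%). The mean difference, H3K27me3 minus H2AK119ub, was 15.3 points over the 46 and −7.04 over all genes, so the imprinted promoters and the whole set lay on opposite sides of 0. The adjusted p of each call was 0.0902 (exact permutation p of 0.0286). Gpr1 had 0 against 100% in every library, and Meg3 had H2AK119ub at 22.0%, 0, 0 and 0, beside H3K27me3 at 92.6% to 100%. Magel2 had 0, 0, 38.7% and 25.1%, beside 81.4%, 78.6%, 100% and 100%. Nnat had 0, 39.1%, 39.4% and 31.4%, beside 100%, 100%, 100% and 77.6%. Usp29 had 33.1%, 20.5%, 20.9% and 47.4% and Peg3 the values given above, beside 100%. Rtl1 had no H2AK119ub peak, beside H3K27me3 at 69.2%, 25.1%, 77.7% and 31.9%.

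The others of the 12 were Nap1l5, Grb10, Dlk1, Rian and Airn, with differences of 20.9 to 46.4 points. The 4 with more H2AK119ub were Peg13, Inpp5f, Zrsr1 and H13. Peg13 had H2AK119ub at 77.0%, 40.95%, 60.3% and 81.5%, beside H3K27me3 at 0, 0, 25.1% and 36.4%. H13, Zrsr1 and Peg13 had more H2AK119ub than H3K27me3 in both cell types, whereas Nap1l5 and Magel2 had more H3K27me3 in both. Over gene spans in HSPCs, 14 imprinted genes (30.4%, beside 8.53%) had more H3K27me3 and 4 (8.7%, beside 19.3%) had more H2AK119ub. The 14 included Igf2, at 100% of its span for H3K27me3 in all 4 libraries and 59.7% to 69.6% for H2AK119ub, and the 4 were H13, Slc22a18, Zrsr1 and Peg13. Igf2-H19 was the domain with the largest H3K27me3 cover in HSPCs, 79.9% to 89.8% of 91.3 kb, and in mES cells both marks covered 84.1% to 97.1% of it.

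Other gene lists were read in the same comparisons. Among 41 further autosomal genes that are imprinted or lie in these domains, H2AK119ub was higher in KO mES cells at 5 (12.2%, beside 4.12% of all promoters: Nap1l4, Klf14, Smoc1, Htr2a and Adam23) and lower at 1 (2.44%, beside 4.29%: Cobl), and H3K27me3 was higher at 0 (beside 1.35%) and lower at 6 (14.6%, beside 11.2%: Nap1l4, Casd1, Cpa4, Smoc1, Art5 and Qpct). In KO HSPCs, H2AK119ub was higher at 11 (26.8%, beside 10.5%: Calcr, Ppp1r9a, Pon2, Pon3, Klf14, Phactr2, Smoc1, Kcnk9, Htr2a, Art5 and Adam23) and lower at 1 (2.44%, beside 2.28%: Chrac1), and H3K27me3 was higher at 0 (beside 3.55%) and lower at 2 (4.88%, beside 4.08%: Osbpl5 and Htr2a). Smoc1, a matrix protein gene imprinted through maternal H3K27me3, had H3K27me3 at 100% and 100% in WT against 24.3% and 25.1% in KO mES cells. In the list of 5 genes imprinted in that way, to which Sfmbt2 also belongs, Smoc1 was the gene called in Tet2 comparisons. It made up 20% of that list for H2AK119ub higher in KO mES cells (beside 4.12%) and in KO HSPCs (beside 10.5%). For H3K27me3 lower in KO mES cells it was again 20% (beside 11.2%). Between cell types H3K27me3 was called at 19 of the 41, 12 higher in HSPCs (29.3%, beside 18.9%) and 7 lower (17.1%, beside 8.99%).

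Among 13 genes that maintain imprints, H2AK119ub was higher in KO mES cells at Ctcf and Dnmt1 (15.4%, beside 4.12%) and lower at Zfp445, Dppa3 and Uhrf1 (23.1%, beside 4.29%), and H3K27me3 was lower at Dnmt3l and Arid4b (15.4%, beside 11.2%). In HSPCs, Zfp57 had less H2AK119ub in KO (84.6% and 35.2% in WT, 25.1% and 0 in KO), 1 of the 13 (7.69%, beside 2.28%). Of 6 Polycomb target genes taken as a reference, the call made in a Tet2 comparison was Gata4, with H2AK119ub higher in KO HSPCs (16.7%, beside 10.5%). All 6 were at least 50% covered by H3K27me3 in all 8 libraries.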

How the data were processed

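CUT&Tag peak lists of 16 mouse libraries were used as the authors deposited them, a list per library, with chromosome, start and end of each peak and no score, count or coverage. Per the submitters' processing notes and the study's methods, reads were trimmed with Trimmomatic 0.39 and aligned with Bowtie2 2.4.1 to mm10 together with a Drosophila spike-in, and duplicates were removed. The methods name MACS2 in broad mode for peak calling and the notes name HOMER 4.9, so which tool made the lists is not settled. Spike-in scaling does not reach a list of positions.

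Overlapping peaks were merged per library, and covered bases were counted per promoter and gene span with Python 3.11.15, numpy 2.4.6 and pandas 2.3.3 for 30233 GENCODE M21 genes, without a filter. Depth is unknown, so no counting interval is given. Groups were compared with two-sided exact permutation tests, Benjamini-Hochberg adjustment ran over all genes, and the counting was tested on simulated peaks. Every gene called between genotypes, and the 8 largest called differences in each other comparison, were given in full. The 46 genes, the other lists and the call rule were chosen with earlier results of these data known. The alternatives were promoters of 2 kb on each side, gene spans, peaks of at least 1 kb, lists of equal length, a difference of 10 points, leaving out each library and a replicate block. Lists of equal length kept the first peaks in file order, whose strength is unknown, so they do not stand for equal depth. Counting all annotated starts was added after the data were seen. Same-numbered replicates deviated together little (r across genes from −0.156 to 0.0151), so the numbers were not taken as pairs.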

Additional observations from a re-analysis of the deposited data

Results flagged for a closer look

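H3K27me3 at the H13 promoter stood out because the KO libraries lay on opposite sides of WT in the 2 cell types. In mES cells KO minus WT came to −25.1 percentage points (25.1% and 25.1% in WT, 0 and 0 in KO), whereas in HSPCs it came to 19.025 points (25.1% and 25.1% in WT, 39.9% and 48.3% in KO). The effects differed by 44.1 points (exact permutation p of 0.0556 over 36 arrangements, the smallest they can give). Separation in opposite directions, by which the genes were flagged, always gives this p, so it does not test the difference. The mES value is the presence of a single peak of the commonest width. H2AK119ub at the Airn promoter lay the other way round, with KO minus WT at 8.6 points in mES cells and −11.15 in HSPCs, a difference of −19.75 points.

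Over gene spans the same held at 3 of 46 genes for each mark (6.52%, beside 4.89% of all genes for H2AK119ub and 3.7% for H3K27me3). The HSPC effect minus the mES effect was 13.2 points at Peg10, 21.5 at Meg3 and 1.52 at Usp29 for H2AK119ub. For H3K27me3 it was 13.9 points at Zdbf2, −20.7 at Blcap and 0.70 at Usp29. Each of these, Airn included, had the same exact permutation p of 0.0556, which the way they were picked fixes in advance. No adjustment was made for the number of genes searched.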

How the results depend on the processing

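The counts of called imprinted promoters were 1 (mES H2AK119ub), 7 (mES H3K27me3), 10 (HSPC H2AK119ub) and 4 (HSPC H3K27me3) between genotypes, 8 and 20 between cell types and 12 and 16 between marks. With gene spans in place of promoters, the 4 genotype counts were 2, 2, 2 and 4, the direction for mES H3K27me3 turned from 1 higher and 6 lower to 2 higher and 0 lower, and the count between marks in mES cells was 4. For mES H2AK119ub the count was 2 with promoters of 2 kb on each side, with all annotated starts and with lists of equal length, and 4 with a difference of 10 points. For mES H3K27me3 it was 4 with peaks of at least 1 kb, and for HSPC H3K27me3 it was 7 with a difference of 10 points. The cause of these shifts was not tested. Leaving out each library gave 8 to 12 and 20 to 22 calls between cell types, and 11 to 14 and 14 to 21 between marks. Between genotypes it leaves a lone library, assumed to stand for its group, so the rule is easier to meet and no count is given. Except for gene spans, the share of all genes called was not counted under these alternatives. With the replicate block the genotype counts were 1, 7, 11 and 4, and the numbers share no stated culture, animal or day. Of 198 values for the 22 promoter differences called between genotypes, 187 kept their direction and 5 were at 0, namely H13 and Trappc9 (mES H3K27me3), Magel2 (HSPC H2AK119ub) and Peg13 (HSPC H3K27me3) with peaks of at least 1 kb and Dio3 (mES H3K27me3) over the span. The 6 that turned were Trappc9 in mES cells for H3K27me3 (2.11 points over the span), Blcap (−3.94), Sgce (−0.30) and Zrsr1 (−11.8) in HSPCs for H2AK119ub over the span, and Rian in HSPCs for H3K27me3 over the span (8.00) and with all annotated starts (11.8). Values cannot be resolved below a peak of 0.501 kb.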
